A study of Rattus norvegicus with 24 samples.

Results

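Glutathione is the tripeptide thiol with which cells neutralise peroxides and reactive organic compounds. The 10 genes of this defence followed here are Gstp1, Mgst1, Gsta1, Gstm1, Nfe2l2, Gclc, Gclm, Gsr, Nqo1 and Hmox1. They were measured in young and aged rats in the dentate gyrus, the part of the hippocampus that receives most cortical input. All probe sets whose annotated symbol was exactly 1 of these 10 names were taken. That gave 11 of the 31042 probe sets of the array that are not controls, with 2 for Gclc and 1 for each other gene, and none of the 11 carried a second symbol. The log2 level was above 4 on at least 6 arrays, the threshold for testing, in 9 of the 11 probe sets, which stand for 8 of the 10 genes. Over the whole array 15177 probe sets met it. The annotation gives 14217 genes a probe set of their own, of which these are 10.

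Each array carried RNA of the dissected dentate gyrus from male Long-Evans rats, with no treatment in any group. The Aged Impaired group had 7 arrays and the Aged Unimpaired group 6, both from rats of 24 to 26 months, and the Young group had 8, from rats of 6 months. A water-maze learning index had split the aged rats into those that performed worse than the young (impaired) and those within the young range (unimpaired). The labels list 24 arrays, and 1 in each group had no values, which left 21. The labels call the arrays biological replicates and give neither dates nor batches nor the maze score of each rat.

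The antioxidant response works through the transcription factor NRF2, encoded by Nfe2l2, which KEAP1 holds in the cytoplasm for degradation until oxidants or electrophiles modify KEAP1. NRF2 then enters the nucleus and, paired with small MAF proteins, binds antioxidant response elements near genes that make, use and recycle glutathione. In the brain this defence is carried mainly by astrocytes, which also supply neurons with precursors of glutathione. The catalytic and modifier subunits of glutamate-cysteine ligase (Gclc and Gclm) start glutathione synthesis, glutathione reductase (Gsr) returns the oxidised form to the thiol, and glutathione transferases attach it to reactive compounds.

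Markers of dentate granule neurons were high on every array: the 6 measured, Prox1 and Calb1 among them, averaged 9.42 to 9.74 in Aged Impaired, 9.45 to 9.61 in Aged Unimpaired and 9.08 to 9.61 in Young rats. In each comparison with young rats 3 of their differences were positive and 3 negative, and 1 marker, Pdyn, was called higher. Array medians were 3.77 to 3.84 and within-group correlations were 0.988 to 0.994 over tested probe sets. Markers of neighbouring tissue were measured as well. The 6 measured markers of CA1 and CA3 pyramidal neurons averaged 6.32 to 7.1 in Aged Impaired, 6.37 to 7.07 in Aged Unimpaired and 6.33 to 7.29 in Young rats. The 4 measured of 14 meningeal markers (Igf2, Igfbp2, Ptgds and Slc13a3) averaged 6.28 to 9.70 in Aged Impaired, 6.24 to 6.69 in Aged Unimpaired and 6.50 to 7.61 in Young rats, and the other 10 did not meet the threshold. Impaired replicates 2, 3 and 7 were highest, at 9.70, 8.98 and 8.30, and stand apart in this respect. Young replicate 5 came next at 7.61, followed by young replicate 2 at 7.22. Ttr, the 1 measured choroid plexus marker of 10, ran from 4.34 to 10.09 in Aged Impaired, 4.11 to 9.43 in Aged Unimpaired and 4.17 to 10.78 in Young rats. Oligodendrocyte markers (8 measured) averaged 9.53 to 10.07 in Aged Impaired, 9.28 to 9.70 in Aged Unimpaired and 9.77 to 10.14 in Young rats. Of these, 3 were called lower in aged minus young, 3 in unimpaired minus young and 0 in impaired minus young. Microglial markers (10 measured) averaged 8.23 to 8.76 in Aged Impaired, 8.30 to 8.52 in Aged Unimpaired and 8.02 to 8.67 in Young rats, with 2 called higher in aged rats. The 12 astrocyte markers averaged 11.05 to 11.46 in Aged Impaired, 11.1 to 11.23 in Aged Unimpaired and 11.1 to 11.31 in Young rats, and of their aged minus young differences 4 were positive and 8 negative, with a median of -0.05. Gfap was the 1 called higher, by 0.40 ± 0.08 (adjusted p = 0.0154 with limma). Of 8 endothelial markers 2, Tek and Slco1a4, were called lower in unimpaired minus young, and 0 in aged or impaired minus young. The part of these other cells in the values given here was not tested, and results without the 4 arrays highest in meningeal markers are given near the end.

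Of the 9 tested probe sets, those of 2 transferases, Gstp1 and Mgst1, were higher in aged than in young rats after adjustment over all tested probe sets. Gstp1 was higher in both aged groups separately. Gsta1, an alpha-class transferase, lay on the other side of the threshold with an adjusted p of 0.0549. The probe sets of the NRF2 gene, of both ligase subunits, of the mu-class transferase Gstm1 and of the quinone reductase Nqo1 did not pass in any comparison. Gsr and Hmox1 were not above the level of 4 on any array. Of all tested probe sets 1.11% passed in aged minus young rats (0.402% higher and 0.705% lower, that is, 61 and 107, against 124 and 108 after quantile normalisation), against 2 of these 9, which were chosen with earlier results of these data known.

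The 250 bases before the start of Gstp1 and Mgst1, which passed, and of Gclm, which did not, are shown because NRF2 is known to act through a short motif near its targets. The letters come from RefSeq, build GRCr8, and run 5′ to 3′ on the gene's strand, with any match to TGACNNNGC, the core of the antioxidant response element, in capitals.
Gstp1, chr1:210769706-210769955, minus strand: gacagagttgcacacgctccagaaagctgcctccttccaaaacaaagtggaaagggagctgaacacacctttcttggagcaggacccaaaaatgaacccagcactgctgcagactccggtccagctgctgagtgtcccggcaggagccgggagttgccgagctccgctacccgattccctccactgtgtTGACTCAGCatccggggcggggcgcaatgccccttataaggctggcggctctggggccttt
Mgst1, chr4:172760680-172760929, plus strand: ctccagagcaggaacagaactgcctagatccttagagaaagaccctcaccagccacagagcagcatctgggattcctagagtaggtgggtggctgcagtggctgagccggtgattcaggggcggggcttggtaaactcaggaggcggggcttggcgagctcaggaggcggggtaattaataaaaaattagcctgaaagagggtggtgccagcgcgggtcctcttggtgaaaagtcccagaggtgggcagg
Gclm, chr2:213031885-213032134, plus strand: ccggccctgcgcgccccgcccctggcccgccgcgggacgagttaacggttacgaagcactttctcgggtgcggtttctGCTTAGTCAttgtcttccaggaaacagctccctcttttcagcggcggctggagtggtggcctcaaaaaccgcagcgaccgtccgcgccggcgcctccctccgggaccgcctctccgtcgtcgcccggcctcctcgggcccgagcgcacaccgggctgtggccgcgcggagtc
Windows from 250 bases before to 50 after the start were found for 8 of the 10 genes, by gene identifier. The motif was searched on both strands and was in 4 of these 8 windows, against 12.1% of all 33469 RefSeq promoter windows. In Gstp1 it read TGACTCAGC and lay 61 to 53 bases before the start, where it overlaps TGACTCA, the AP-1 motif, which 4.63% of all windows hold. In Gclm it lay 172 to 164 bases before the start on the opposite strand, as TGACTAAGC, so that the capitals above are its reverse complement. Gsta1 held TGACTTTGC 31 to 39 bases after the start and Nfe2l2 held TGACGCCGC 39 to 47 bases after it, outside the 250 bases before each start. The windows of Mgst1, Gclc, Gstm1 and Nqo1 held no match to these letters. Whether NRF2 occupies any of these sites was not measured.

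Gstp1, the pi-class transferase, is the main soluble transferase of many tissues and conjugates glutathione to electrophiles. In Aged Impaired rats its log2 level ran from a lowest of 10.32 through a median of 10.54 to a highest of 10.62. In Aged Unimpaired rats these values were 10.29, 10.36 and 10.49, and in Young rats 10, 10.11 and 10.27. All 13 aged arrays lay above all 8 young arrays, and only 0.0198% of tested probe sets had aged arrays all above all young arrays.
The level averaged 10.52 ± 0.10 in Aged Impaired, 10.38 ± 0.08 in Aged Unimpaired and 10.12 ± 0.09 in Young rats (SD, n = 7, 6 and 8). The probe set, 1388122_at, gave an aged minus young difference of 0.33 ± 0.04 (SE) on the log2 scale, that is, a 1.26-fold higher level with a 95% interval of 1.18 to 1.34 (limma, adjusted p = 0.000246). It ranked 8th by p among all tested probe sets. With each array left out in turn the difference was 0.31 to 0.35 and the adjusted p at most 0.0012. These rats were sampled as bulk tissue, so a larger number of Gstp1-expressing cells and more Gstp1 RNA per cell cannot be told apart.

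The 2 aged groups were also set against the same young arrays separately. In the Aged Impaired rats Gstp1 was higher than in Young rats by 0.40 ± 0.05 (1.32-fold, adjusted p = 0.000156 with limma). In the Aged Unimpaired rats the difference was 0.26 ± 0.05 (1.2-fold, adjusted p = 0.0179). The 7 impaired arrays and the 6 unimpaired arrays all lay above every young array, as 0.171% and 0.105% of tested probe sets did in these comparisons. In impaired minus young 0.514% of all tested probe sets passed (0.31% higher) and in unimpaired minus young 1.13% (0.198% higher and 0.936% lower), and 1 of the 9 probe sets of these genes passed in each, Gstp1 both times. After quantile normalisation the calls split as 56 higher and 56 lower in impaired minus young, against 47 and 31, and as 64 and 61 in unimpaired minus young, against 30 and 142.

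Mgst1 encodes a microsomal transferase that sits in the endoplasmic reticulum and outer mitochondrial membranes and reduces lipid hydroperoxides. Its log2 level ran from 7.05 through a median of 7.59 to 7.80 in Aged Impaired rats. In Aged Unimpaired rats the values were 6.91, 7.62 and 7.91, and in Young rats 5.67, 6.97 and 7.31. The groups overlapped: 11 of 13 aged arrays lay above every young array, while impaired replicate 8 and unimpaired replicate 8 did not. Young replicate 3, at 5.67, was the lowest array of all.
The mean was 7.52 ± 0.27 in Aged Impaired, 7.53 ± 0.35 in Aged Unimpaired and 6.78 ± 0.55 in Young rats (SD). Aged rats were higher by 0.74 ± 0.18, or 1.67-fold, with an interval of 1.30 to 2.16 (limma, adjusted p = 0.0421). Each aged group alone gave nearly the same difference from young, 0.73 ± 0.20 for impaired (adjusted p = 0.116) and 0.75 ± 0.21 for unimpaired (adjusted p = 0.0833), and neither passed. The pooled call rested on the whole set of arrays. It was kept when impaired 8, unimpaired 8, young 1, young 2 or young 5 was left out and lost when any of the other 16 arrays was left out, with differences of 0.58 to 0.82 and adjusted p from 0.0252 to 0.0872 over all 21. Without young replicate 3, the difference was 0.58 ± 0.14 (adjusted p = 0.0546), and with no filter on low values the adjusted p was 0.103.

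Gsta1 encodes an alpha-class transferase that also has steroid isomerase activity. Its level was 11.04 at the lowest, 11.31 at the median and 11.59 at the highest in Aged Impaired rats. The Aged Unimpaired values were 11.05, 11.12 and 11.26, and the Young values were 10.42, 10.91 and 11.29. All but 1 of the young arrays lay below all 13 aged arrays, and the exception was young replicate 5. Aged minus young gave 0.36 ± 0.09 (adjusted p = 0.0549 with limma). Impaired minus young gave 0.45 ± 0.10 (adjusted p = 0.0559) and unimpaired minus young 0.27 ± 0.11 (adjusted p = 0.201). It passed in aged minus young under a filter above 6 (adjusted p = 0.0448), quantile normalisation (0.0223), eBayes with trend and robust (0.0467) or array weights (0.0366), and impaired minus young passed under the same settings (adjusted p from 0.0331 to 0.0457). Neither comparison passed with no filter on low values (limma, adjusted p = 0.123 for aged and 0.131 for impaired minus young). The same held with median centring (0.056 and 0.0603), and impaired minus young did not pass in a fit of those groups alone (0.139). Without young 5, Gsta1 passed, at 0.42 with an adjusted p of 0.0138 for aged minus young, and it passed without impaired 3 as well (adjusted p = 0.0452). With any of the other 19 arrays left out, aged minus young did not pass (limma, adjusted p up to 0.111). Some transferases of the same class are closely related in sequence, and a separate probe set carries the symbols of Gsta2 and Gsta5 together, so how far each probe set reads a single gene is uncertain.

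Gstm1 is a mu-class transferase. Its values ran from 10.78 through 10.99 to 11.15 in Aged Impaired rats, from 10.76 through 10.90 to 10.99 in Aged Unimpaired rats and from 10.77 through 10.95 to 11.07 in Young rats. The ranges overlapped almost fully, and the aged minus young difference was 0 ± 0.05 with an interval of -0.10 to 0.10 on the log2 scale.

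**Figure D1:**
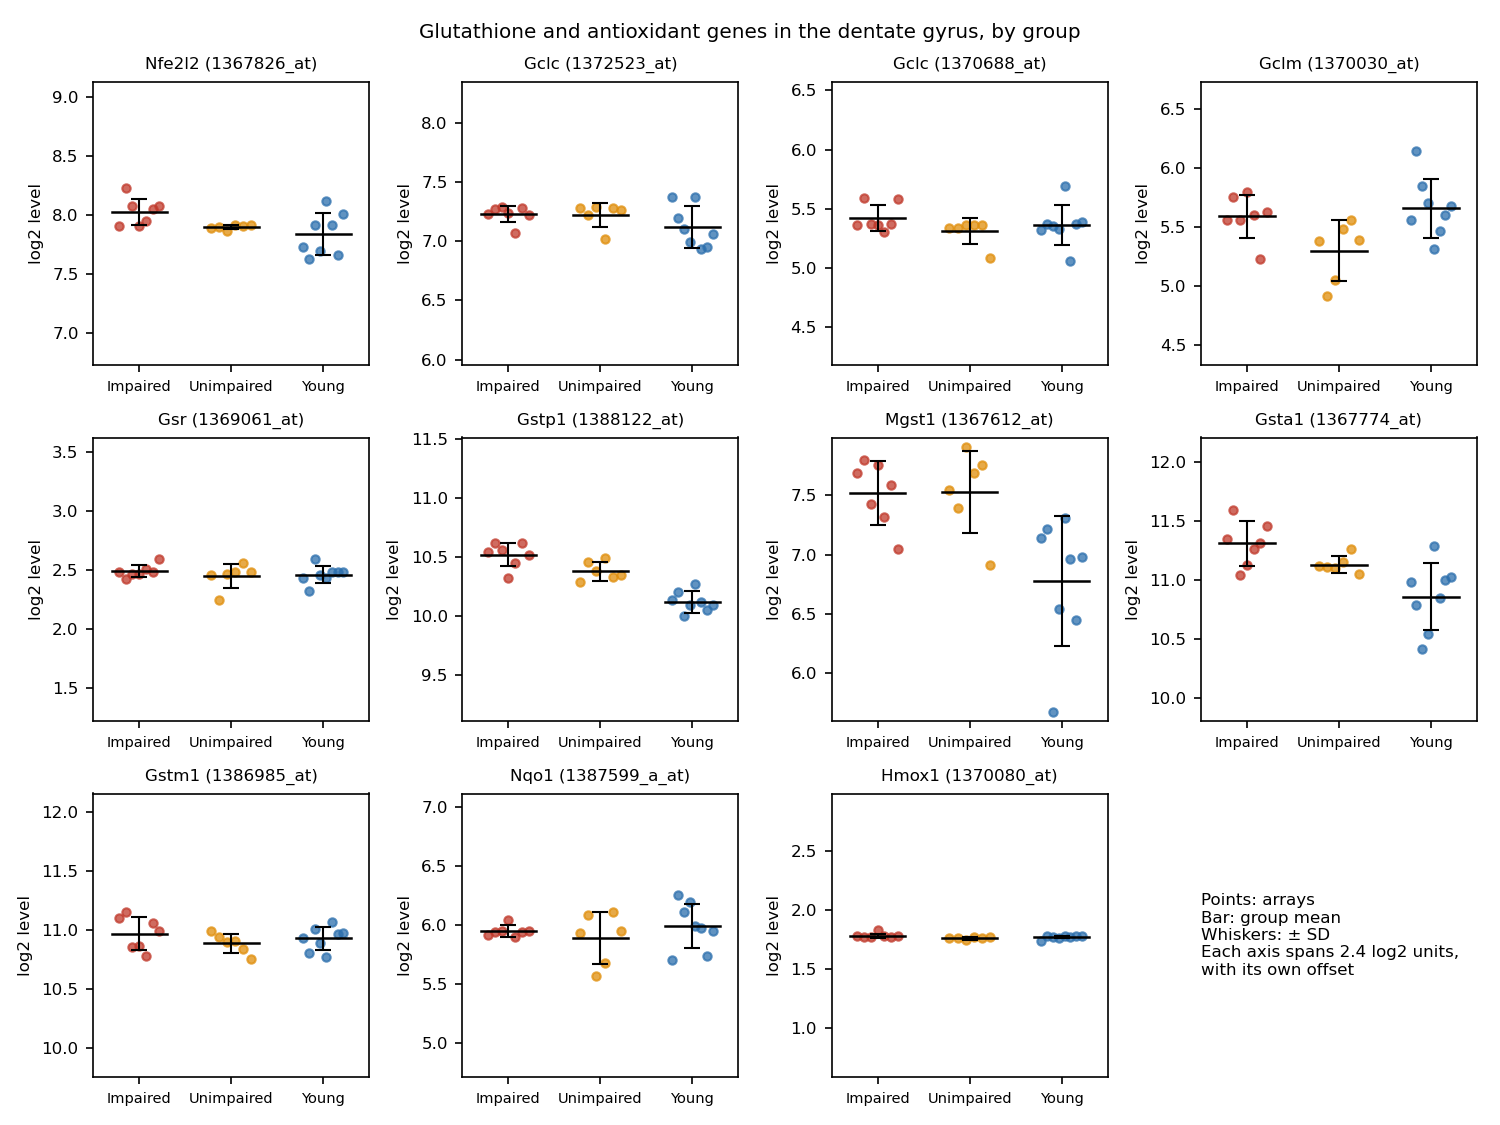
Log2 level of each probe set of the 10 genes on every array (vertical axis), with Aged Impaired, Aged Unimpaired and Young arrays from left to right in each panel (horizontal axis). Points are arrays and horizontal bars are group means with whiskers of 1 SD; Gstp1 shows 13 aged arrays all above the 8 young arrays, and Gsr and Hmox1 lie below the level of 4 throughout.

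Nfe2l2, the gene of the NRF2 factor itself, was 7.91 at the lowest, 8.05 at the median and 8.23 at the highest in Aged Impaired rats. The Aged Unimpaired rats were tightly grouped at 7.87, 7.90 and 7.92, and the Young rats spread over 7.63, 7.82 and 8.12. All 13 aged arrays lay above the young mean, but 4 of the 8 young arrays, at 7.92 and above, lay within the impaired range. Before rounding, the same 4 young arrays lay above every unimpaired array and the other 4 below every unimpaired array. The aged minus young difference was 0.13 ± 0.06 with an interval of 0.01 to 0.25 (adjusted p = 0.306 with limma). For impaired minus young it was 0.19 ± 0.07 (adjusted p = 0.21) and for unimpaired minus young 0.06 ± 0.07 (adjusted p = 0.681). NRF2 is controlled mostly at the protein level, which arrays do not read.

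Gclc, the catalytic subunit that sets the pace of glutathione synthesis, was read by 2 probe sets. On the brighter, 1372523_at, the values were 7.07, 7.24 and 7.29 in Aged Impaired, 7.02, 7.27 and 7.29 in Aged Unimpaired and 6.93, 7.08 and 7.37 in Young rats as lowest, median and highest. The aged minus young difference was 0.10 ± 0.06 (adjusted p = 0.42). On the dimmer, 1370688_at, it was 0 ± 0.06, with values of 5.30, 5.37 and 5.59 in Aged Impaired, 5.08, 5.35 and 5.36 in Aged Unimpaired and 5.06, 5.36 and 5.69 in Young rats. The dimmer probe set had 14 of 21 arrays within 0.03 of its median, so its values hold little information on differences between rats.

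Gclm, the modifier subunit that raises the affinity of the ligase for its substrate, had the lowest values in the unimpaired group. The lowest, median and highest were 5.23, 5.60 and 5.80 in Aged Impaired, 4.92, 5.39 and 5.56 in Aged Unimpaired and 5.31, 5.64 and 6.14 in Young rats. All 6 unimpaired arrays lay below the young mean, yet the ranges overlapped. Unimpaired minus young was -0.36 ± 0.12 (adjusted p = 0.132) and aged minus young was -0.22 ± 0.10 (adjusted p = 0.307), while impaired minus young was -0.07 ± 0.11 (adjusted p = 0.85, all with limma). Of the 9 tested probe sets Gclm had the most negative aged minus young difference, and it did not pass.

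Nqo1, which reduces quinones with 2 electrons and so avoids reactive semiquinones, was at 5.90, 5.94 and 6.04 in Aged Impaired, 5.57, 5.94 and 6.11 in Aged Unimpaired and 5.70, 5.98 and 6.25 in Young rats. The ranges overlapped and aged minus young was -0.07 ± 0.07 (adjusted p = 0.701). Hmox1, the inducible haem oxygenase, ranged from 1.74 to 1.83 over all 21 arrays and Gsr from 2.25 to 2.59. Within 0.03 of the median lay 20 of 21 arrays for Hmox1 and 13 of 21 for Gsr. GCRMA gives probe sets at background nearly the same value on every array, so whether either gene differs between groups was not measurable here. When all 31042 probe sets were tested, their aged minus young differences were 0.01 for Gsr and 0 for Hmox1.

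**Figure D2:**
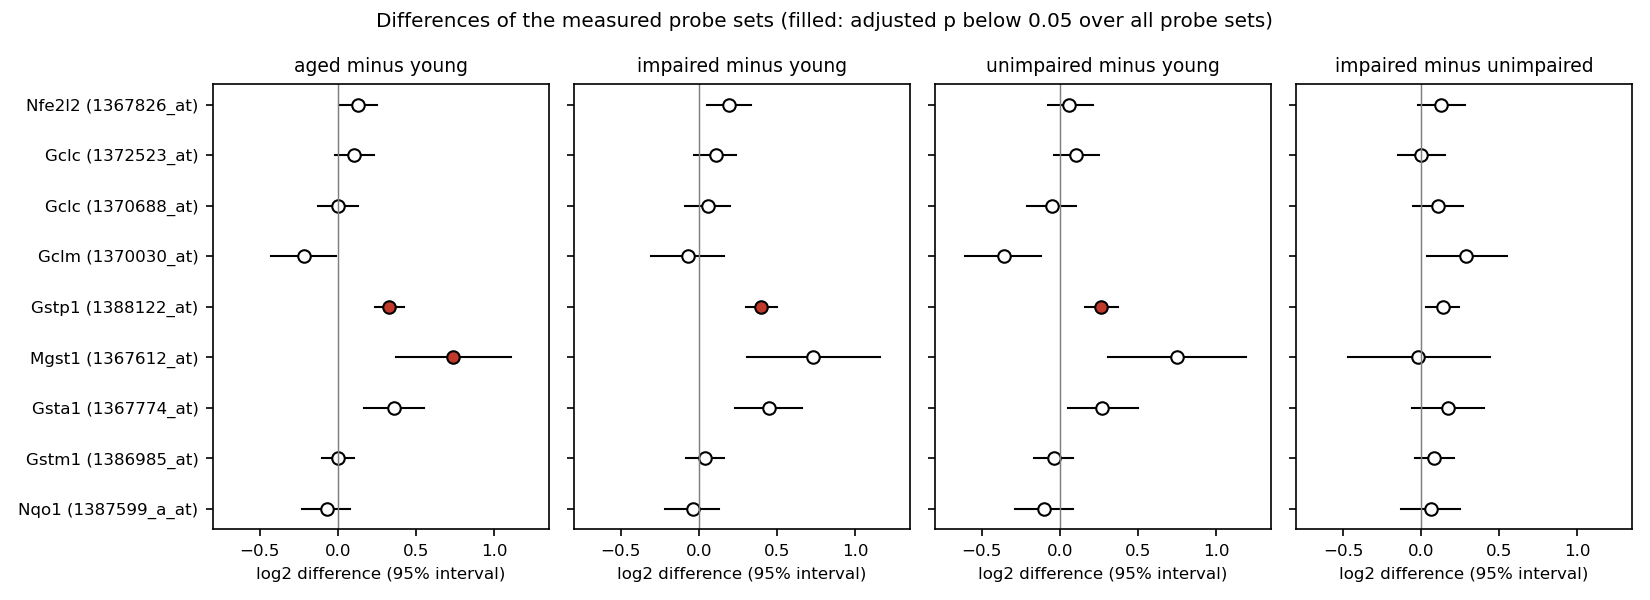
Log2 differences of the 9 tested probe sets (vertical axis) in the 4 comparisons (horizontal axis: log2 difference), with 95% intervals; filled points passed at an adjusted p of 0.05. Gstp1 is filled in 3 comparisons and Mgst1 in aged minus young, and no point is filled in impaired minus unimpaired.

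The impaired and unimpaired aged rats differ in maze performance within the same range of ages. None of the 9 probe sets passed, and in limma's fit 0% of the 15177 tested probe sets did, with 2199 at an unadjusted p below 0.05. A fit of those 2 groups alone called 1 probe set, which was no member of the list. The impaired level was higher in 8 of the 9 probe sets, with a median difference of 0.11, but 72.4% of all tested probe sets had a positive difference here and their median was 0.05. After quantile normalisation that median was -0.006 and the Gstp1 difference 0.07.
Gstp1 differed by 0.14 ± 0.05 (interval 0.03 to 0.24, unadjusted p = 0.0168, adjusted p = 0.244) and Gclm by 0.29 ± 0.12 (interval 0.04 to 0.55, unadjusted p = 0.027, adjusted p = 0.279). Gsta1 differed by 0.17 ± 0.11 (adjusted p = 0.481) and Nfe2l2 by 0.13 ± 0.07 (adjusted p = 0.416). For Nfe2l2 7 of 7 impaired arrays lay above the unimpaired mean. The same count held for Nqo1, which differed by only 0.06 ± 0.09 (limma, adjusted p = 0.785). Mgst1 differed by -0.02 ± 0.22, an interval of -0.47 to 0.44. None of these intervals shows that the aged groups are alike.

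Other genes of glutathione and antioxidant metabolism were taken from 7 lists. Of 118 listed genes 99 were on the array and 66 were measured by the same threshold. In aged minus young 33 of them had positive and 33 negative differences, 0 passed in limma's fit, 9 had an unadjusted p below 0.05, and the median was 0. All tested probe sets had 43.2% positive differences and a median of -0.01, and 2214 of the 15177 had an unadjusted p below 0.05 in that fit. The other glutathione transferases, with 10 measured genes among 19 on the array, ran from -0.12 ± 0.06 for Gstz1 to 0.14 ± 0.09 for Gstm4.
By list, the aged minus young median ran from -0.07 for the 7 glutathione peroxidases and glutaredoxins, with 5 negative, to 0.05 for the 11 genes of glutathione synthesis, salvage and cystine uptake, with 8 positive.
In impaired minus young 44 of the 66 differences were positive (55.2% of all tested probe sets) and the median was 0.03, while in unimpaired minus young 23 were positive (34% of all) and the median was -0.04. In impaired minus unimpaired 52 were positive (72.4% of all), the median was 0.05 and 0 passed, with 10 at an unadjusted p below 0.05 in limma's fit. Of all 15177 tested probe sets 2199 had such a p. In impaired minus young 1 of the 66 passed, against 0.514% of all tested probe sets. Lap3, a leucine aminopeptidase that can release cysteine from cysteinyl-glycine, averaged 8.54 ± 0.11 in Aged Impaired, 8.17 ± 0.14 in Aged Unimpaired and 8.20 ± 0.16 in Young rats. Against Young rats the difference was 0.34 ± 0.07 (adjusted p = 0.0324 with limma). In unimpaired minus young 1 of the 66 passed, against 1.13% of all tested probe sets. It was Glrx, a glutaredoxin that removes glutathione from protein thiols, at 9.60 ± 0.12 in Aged Unimpaired and 9.84 ± 0.09 in Young rats. The difference was -0.24 ± 0.06 (adjusted p = 0.0408 with limma), with all 6 unimpaired arrays below the young mean. That call came from 1 of the 2 tested probe sets of Glrx, and the other passed in no comparison. In impaired minus unimpaired Lap3 differed by 0.36 ± 0.08 (adjusted p = 0.129) and Glrx by 0.12 ± 0.06 (adjusted p = 0.356). The Lap3 call was lost without impaired 2, 3, 6, 7 or 8 or young 3, 4, 6, 7 or 9 (adjusted p up to 0.07), and the Glrx call without unimpaired 1, 3, 4, 6 or 8 or young 1, 4, 5, 6 or 7 (adjusted p up to 0.107). Without the 4 arrays highest in meningeal markers the adjusted p was 0.159 for Lap3 and 0.0875 for Glrx.
Of genes whose aged minus young p was smallest in their list, Prdx6, a peroxiredoxin with phospholipase activity, had a difference of 0.20 ± 0.07 (adjusted p = 0.177). Catalase, Cat, had -0.19 ± 0.08 (adjusted p = 0.267) and Cth, which makes cysteine from cystathionine, had -0.23 ± 0.11 (adjusted p = 0.352). Ephx1, an epoxide hydrolase known as an NRF2 target, had 0.28 ± 0.11 (adjusted p = 0.211) and Nfe2l1, the relative of NRF2, 0.19 ± 0.10 (adjusted p = 0.389). Sesn2, Sod3, Blvra, Glrx3 and Rbx1, named by the same rule, had differences of -0.16 to -0.08, none of which passed.

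**Figure D3:**
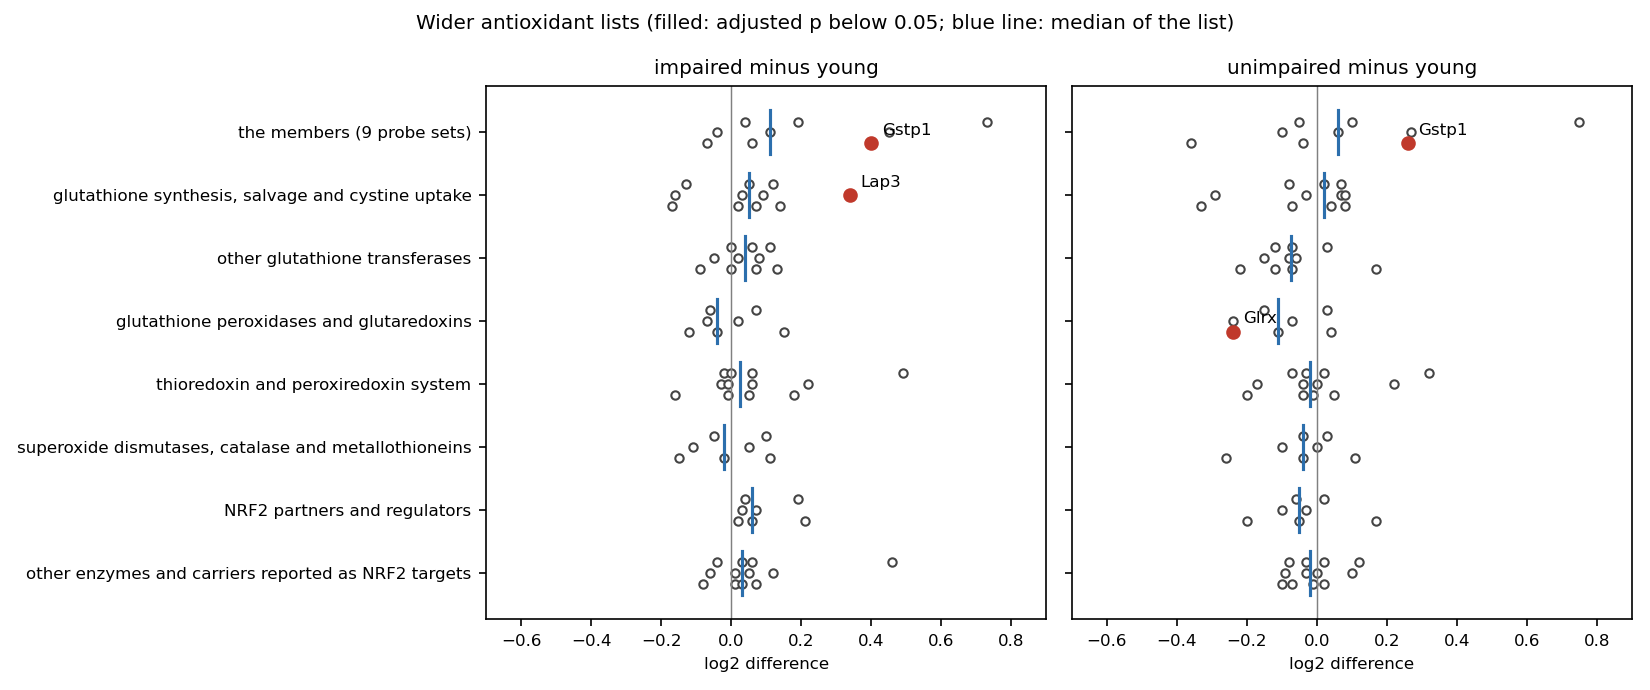
Log2 differences in impaired minus young (left panel) and unimpaired minus young rats (right panel), on the horizontal axis, of the measured pathway genes and the 9 tested probe sets of the 10 genes, by list on the vertical axis. Filled points passed at an adjusted p of 0.05 and blue lines are list medians: Gstp1 and Lap3 are filled on the left, Gstp1 and Glrx on the right.

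Within groups no pair of the 9 probe sets passed after adjustment over 36 pairs. The deviations from group means of Mgst1 and Gsta1 had r = 0.55 over 21 arrays (permutation p = 0.0301, adjusted p = 0.417) and rho = 0.37 (permutation p = 0.128, adjusted p = 0.529), with r = 0.18 once the 2 arrays farthest in Gsta1 were left out. For Mgst1 and Gstp1 r was 0.44 (permutation p = 0.049, adjusted p = 0.441) and rho 0.40 (permutation p = 0.0807, adjusted p = 0.529), with r = 0.55 without the 2 arrays farthest in Gstp1.
By correlation with levels across all 21 arrays and 8729 genes, Pcdhb17 (r = 0.89), Bmp6 (0.88) and Pea15 (0.83) were most like Gstp1, and Me3 (0.84), Tsfm (0.84) and Pdyn (0.82) were most like Mgst1. These values include the difference between age groups, and the same pairs had r of 0.33, 0.57, 0.64, 0.74, 0.73 and 0.64 in deviations from group means. Pcdhb17, a protocadherin, was itself 1.29 ± 0.10 higher in aged rats (limma, adjusted p = 7.25e-07) and Pdyn, the prodynorphin gene of granule neurons, 0.36 higher (adjusted p = 0.0138). Bmp6 passed as well, at 0.63 ± 0.10 (adjusted p = 0.00339). Pea15, Me3 and Tsfm, at 0.14, 0.28 and 0.20, did not pass (adjusted p = 0.071, 0.104 and 0.0955).

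None of the 9 probe sets was related within groups to the meningeal level after adjustment. Gstp1 had r = 0.55 over 21 arrays (permutation p = 0.0181, adjusted p = 0.0815 over 9 relations) and rho = 0.55 (permutation p = 0.0133, adjusted p = 0.0598), and r was 0.53 without the 2 arrays farthest in the markers. Nfe2l2 had r = 0.47 (permutation p = 0.0139, adjusted p = 0.0815), with rho = 0.32 and r = 0.33 without those arrays. The brighter Gclc probe set, 1372523_at, had r = 0.30 (permutation p = 0.0317, adjusted p = 0.0952) and rho = 0.48 (permutation p = 0.0125, adjusted p = 0.0598). The dimmer, 1370688_at, had r = 0.38 (permutation p = 0.0478, adjusted p = 0.108) and rho = 0.47 (permutation p = 0.0529, adjusted p = 0.159). Without the 4 arrays highest in these markers, a choice made after seeing the data, Gstp1 was higher in aged rats by 0.32 ± 0.04 (adjusted p = 0.00127 with limma), and impaired minus young was 0.36 ± 0.05 (adjusted p = 0.00615). Its impaired minus unimpaired difference was 0.08 ± 0.05, against 0.14 with all arrays. In aged minus young Mgst1 was at 0.78 ± 0.20 without these arrays and no longer passed (adjusted p = 0.0954), whereas Gsta1 was at 0.42 ± 0.08 and passed (adjusted p = 0.031). Impaired minus young for Gsta1 was 0.50 ± 0.10 without them and did not pass (limma, adjusted p = 0.0731). Of these 4 arrays left out singly, young 5 gave Gsta1 0.42 and impaired 3 gave 0.38 in aged minus young, and both passed. Impaired 2 gave 0.34 and impaired 7 gave 0.36, and neither passed.

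**Figure D4:**
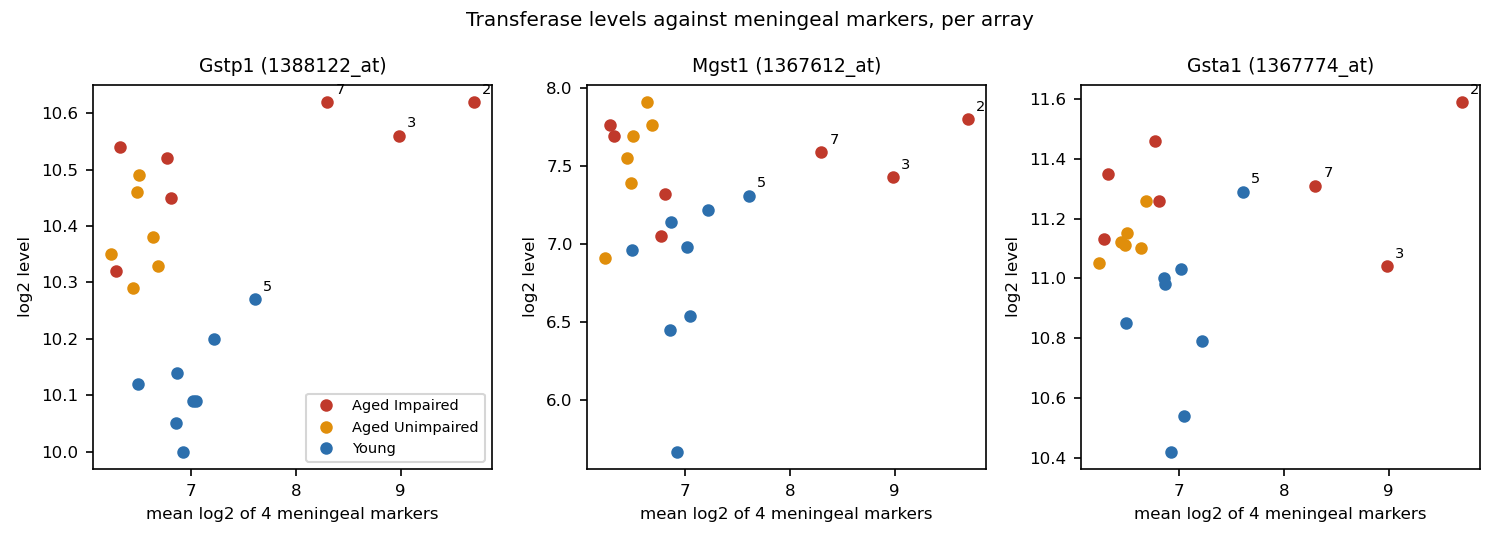
Log2 level of Gstp1, Mgst1 and Gsta1 (vertical axes) against the mean log2 level of 4 meningeal markers (horizontal axes), with 1 point per array coloured by group. The numbered points are impaired replicates 2, 3 and 7 and young replicate 5, the 4 arrays highest in these markers. All 13 aged points of Gstp1 lie above the 8 young points, so leaving out arrays cannot change that order.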

How the data were processed

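The authors deposited log2 levels per probe set, made with GCRMA of an unstated version, per the submitters' processing notes. GCRMA corrects background, quantile-normalises and summarises probes. Its parameters are not given in the sources used here. The table holds 31099 probe sets, 57 of them controls, with values from 0.548 to 15.2. Groups follow the labels. Symbols came from the platform annotation: 11476 tested probe sets have 1 symbol, 281 several and 3420 none.

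Group differences came from limma (version 3.58.1, under R 4.3.3), with all 3 groups in 1 fit with 18 residual degrees of freedom. The aged mean weighted both aged groups equally. Probe sets above log2 4 on at least 6 arrays were tested, and p-values were adjusted over all 15177 by Benjamini-Hochberg; a call is an adjusted p below 0.05. Members and lists were chosen with earlier results of these data known. Named pathway genes are those with a call in any comparison and the 2 of each list with the smallest p in aged minus young, each gene read by its tested probe set of highest mean. For superoxide dismutases, catalase and metallothioneins, the other probe sets of a gene were not searched for calls. Genes like a member are the 3 with the highest r. Relations used 100000 permutations within groups. The fit was tested on simulated data. Alternatives changed the filter, scaling, variance model, weights, samples and replicate block. The number of arrays limits the precision, and the labels give no hybridisation batch. The labels do not say that numbers pair rats, so numbers were not used as pairs in the main fit. Of same-numbered pairs of arrays, 4 of 17 had deviations correlated above 0.1, against 12 of 129 other pairs. Of 19 arrays with a same-numbered array, 7 correlated best with an array of their own number. The number expected without pairing was not worked out, so these counts do not decide it. Results with the numbers as a block are given near the end. Young replicate 9 stands among the unimpaired arrays in the order of the series but is titled Young, and it was kept as Young.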

Additional observations from a re-analysis of the deposited data

Results flagged for a closer look

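The flagged values are single arrays that stand apart from the others of their group by Dixon's criterion at the 95% level. They were 7 in 33 groups examined, and chance flags about 1 in 20 groups. All lie in probe sets that passed no test.

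For Gclm, impaired replicate 7 was at 5.23, below the next lowest impaired array at 5.56. For Gclc probe set 1372523_at, impaired replicate 6 was at 7.07 and unimpaired replicate 6 at 7.02, against a next lowest of 7.22 in each group. For the dimmer Gclc probe set 1370688_at, unimpaired replicate 8 was at 5.08, with the next lowest at 5.34. For Nqo1, impaired replicate 4 was highest at 6.04, with the next at 5.95. For the probe sets not above the level of 4, unimpaired replicate 3 was at 2.25 for Gsr, with the next at 2.46, and impaired replicate 4 at 1.83 for Hmox1, with the next at 1.78.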

How the results depend on the processing

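Of the 9 tested probe sets, 2 passed in aged minus young. That count was 1 without the filter on low values (Gstp1 alone, over 31042 probe sets) and 3, with Gsta1 added, under a filter above 6, quantile normalisation, eBayes with trend and robust, array weights or the replicate block (Gsta1 0.47, adjusted p = 0.0156), and it ran from 1 to 3 when single arrays were left out. In impaired minus young the count of 1 became 2, with Gsta1 added, under a filter above 6, quantile normalisation, eBayes with trend and robust, or array weights, and 3 with the replicate number as a block, with Mgst1 too; leaving out single arrays gave 1 to 2, the 2 without impaired 4 or young 5. In unimpaired minus young the 1 became 0 with the replicate block, where Gstp1 was 0.30 ± 0.06 (adjusted p = 0.0863). Single arrays left out kept it at 1. Impaired minus unimpaired stayed at 0 in all alternatives run.

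Replicate numbers came from the labels. As a hint from the data, 7 of 19 arrays correlated best with an array of their own number, and 4 of 17 same-numbered pairs had r above 0.1, against 12 of 129 other pairs. The number of such arrays expected without pairing was not worked out. With the block, all calls over the array numbered 76, 114 and 9 in the comparisons of aged, impaired and unimpaired with young rats, against 168, 78 and 172 without it. Without the low-value filter they numbered 90, 33 and 67, with only the groups compared 33 (impaired) and 69 (unimpaired), and without the 4 arrays high in meningeal markers 86, 29 and 95. With single arrays left out they ran from 89 to 239 for aged minus young (lowest without young 6, and 91 without young 9), from 36 to 161 for impaired minus young and from 59 to 219 for unimpaired minus young. They moved by over 1.5 times in impaired minus young without impaired 2, 3 or 7, unimpaired 3 or young 3, 5, 6, 7 or 9, of which young 5 gave the 161, and in unimpaired minus young without unimpaired 1, 3, 4, 6 or 8 or young 6 or 9, the last giving the lowest.

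Differences that changed sign were all uncalled and near 0. They were, for Gclc 1370688_at, 0 in aged minus young with median centring and 0.03 in unimpaired minus young with the replicate block. For Gstm1 they were 0.02 in aged minus young with quantile normalisation and with array weights, 0.01 in unimpaired minus young with quantile normalisation, and -0.02 in impaired minus young without the 4 meningeal-high arrays. For Gclc 1372523_at in impaired minus unimpaired they were -0.01 with median centring, -0.06 with quantile normalisation, -0.01 with the replicate block and -0.04 without the 4 arrays. Single arrays left out moved aged minus young from -0.04 to 0.05 for Gclc 1370688_at and from -0.02 to 0.02 for Gstm1, and impaired minus unimpaired from -0.14 to 0.06 for Mgst1, from -0.04 to 0.03 for Gclc 1372523_at and from 0 to 0.11 for Nqo1. Lap3 in impaired minus young also missed the threshold without the filter (adjusted p = 0.0733) and in a fit of those groups alone (0.0643), and Glrx in unimpaired minus young without the filter (0.066), with median centring (0.0554), quantile normalisation (0.0935), only the groups compared (0.0825) and the replicate block (0.146). Gfap in aged minus young missed it with the replicate block (0.0897). The cause was not tested.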

Other observations

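Txnip, which encodes the inhibitor of thioredoxin, was singled out after its values were seen. It averaged 7.51 ± 0.49 in Aged Impaired, 6.98 ± 0.35 in Aged Unimpaired and 7.01 ± 0.31 in Young rats (SD). Impaired minus unimpaired was 0.53 ± 0.20 (limma, adjusted p = 0.246) and impaired minus young 0.49 ± 0.19 (adjusted p = 0.268), and 6 of 7 impaired arrays lay above the unimpaired mean. Without the 4 arrays highest in meningeal markers these differences were 0.25 ± 0.19 and 0.31 ± 0.18. Srxn1, sulfiredoxin, which restores oxidised peroxiredoxins, averaged 8.11 ± 0.23 in Aged Impaired, 8.21 ± 0.30 in Aged Unimpaired and 7.89 ± 0.32 in Young rats, with an aged minus young difference of 0.27 ± 0.12 (limma, adjusted p = 0.3).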
